A study of Psammomys obesus with 8 samples.

Results

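A group of 7 microglial genes was followed in a methylation capture table of *Psammomys obesus*, the fat sand rat: Tmem119, Havcr2, Cx3cr1, Aif1, Csf1r, Itgam and C1qa. They were read at every contig whose mouse match lies inside 1 of these genes, which gave 59 of the 125082 contigs inside mouse genes, and 7 of the 19098 genes that hold such a contig. The whole table has 548060 contigs. All 59 contigs and all 7 genes passed the filter of a mean of 10 counts per library, which removed nothing. The group was chosen by measured log2 fold changes and p-values between the 2 diet groups, among them that of a Havcr2 contig, together with known microglial roles. Their differences between these groups are therefore given as a description and support nothing.

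DNA came from the hypothalamus of male offspring aged 16 weeks. The 4 libraries of the low-low group carry the diet tag Low lipid, and the 4 of the standard-low group carry the tag Standard Lipid. The design text speaks of paternal diets and the title of parental diet, and the labels do not say which generation each word of a group name stands for. The word Low in second place is common to both groups. MethylMiner, which uses a methyl-CpG binding protein on beads to retain fragments with methylated CpG sites, served for enrichment. The labels do not say whether the replicates came from separate animals or litters, so any p-value here reflects the spread among the samples alone, and part of it may be technical.

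Microglia are the resident macrophages of the brain. They depend on signals through the receptor Csf1r for survival, respond to the neuronal chemokine fractalkine through Cx3cr1, and make the complement component C1q, which tags synapses for removal. Tmem119, a single-pass membrane protein, is used to tell microglia from other macrophages, and Havcr2 encodes TIM-3, an immune checkpoint receptor of T cells and myeloid cells. The assay reads captured DNA, in which every cell of the tissue takes part, and not RNA. The microglial label of the genes therefore could not be checked here, and the values describe the hypothalamus as a whole. In such bulk samples, fewer cells with a methylated site and less methylation in each cell cannot be told apart, and without input libraries a change in methylation cannot be told apart from one in the amount of underlying DNA.

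Stretches of 4 contigs are printed first because the results turn on them. The contig given to Havcr2 with the clearest difference between groups, contig 3308923, has a stretch in common with another contig given to Havcr2, 1298038. Very many other contigs of the table share it too. In the first pair of sequences, capitals mark the stretch over which the Havcr2 contigs align with each other. In the second pair, capitals mark CpG sites, the targets of the capture. One of that pair comes from the Havcr2 contig with the most reads, and the other is the start of the open reading frame in a Tmem119 contig.
Havcr2 contig 3308923, bases 223 to 522: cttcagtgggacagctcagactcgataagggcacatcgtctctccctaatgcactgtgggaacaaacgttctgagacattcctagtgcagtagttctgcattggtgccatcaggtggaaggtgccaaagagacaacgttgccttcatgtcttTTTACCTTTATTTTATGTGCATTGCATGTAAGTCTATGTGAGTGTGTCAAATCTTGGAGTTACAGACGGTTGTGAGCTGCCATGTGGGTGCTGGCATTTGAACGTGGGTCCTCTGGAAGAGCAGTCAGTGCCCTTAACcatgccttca
Havcr2 contig 1298038, reverse complement of bases 125 to 304: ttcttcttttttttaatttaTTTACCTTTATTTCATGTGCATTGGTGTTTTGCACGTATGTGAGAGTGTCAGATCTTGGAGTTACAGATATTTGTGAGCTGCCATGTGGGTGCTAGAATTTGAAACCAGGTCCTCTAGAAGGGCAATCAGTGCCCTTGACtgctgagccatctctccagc
Havcr2 contig 1217175, bases 1 to 300: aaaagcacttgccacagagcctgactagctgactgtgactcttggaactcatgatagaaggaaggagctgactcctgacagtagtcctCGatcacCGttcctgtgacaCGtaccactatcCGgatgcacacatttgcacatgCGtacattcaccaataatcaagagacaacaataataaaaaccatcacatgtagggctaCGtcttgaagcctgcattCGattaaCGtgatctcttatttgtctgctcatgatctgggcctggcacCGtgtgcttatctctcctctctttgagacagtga
Tmem119 contig 4117845, reverse complement from base 17 to base 316: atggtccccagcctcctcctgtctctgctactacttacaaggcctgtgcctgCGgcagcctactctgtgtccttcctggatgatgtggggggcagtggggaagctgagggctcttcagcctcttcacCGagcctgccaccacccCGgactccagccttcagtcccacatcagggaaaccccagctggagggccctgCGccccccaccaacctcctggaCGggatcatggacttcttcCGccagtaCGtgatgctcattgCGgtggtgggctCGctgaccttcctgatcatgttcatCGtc
The shared stretch covered 138 bases of contig 3308923, from base 375 to base 512, and had 82.3% identity to bases 145 to 284 of contig 1298038. The 300-base window of contig 3308923 held 6 CpG, and the 180-base window of contig 1298038 held 1. The windows of Havcr2 contig 1217175 and Tmem119 contig 4117845 held 9 and 10. In Tmem119 contig 4117845, the frame from the first ATG ran for 140 codons without a stop, and 13 CpG lay from that ATG to the contig's end.

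The mouse positions of the contigs are those of the deposited table, of unstated mouse build, and exons, introns and UTRs were not analysed here. The Tmem119 contigs matched chromosome 5, from 113795297 to 113797846. The 5 Havcr2 contigs matched chromosome 11, from 46457774 to 46470974. Those of Aif1 lay on chromosome 17 (35171308 to 35175078), of Csf1r on chromosome 18 (61105692 to 61132686), of Itgam on chromosome 7 (128069563 to 128123153) and of C1qa on chromosome 4 (136895914 to 136898745). The 24 contigs given to Cx3cr1 spread over 139822 bases of chromosome 9, from 119928664 to 120068485. In the RefSeq annotation of the sand rat assembly mPsaObe1.curated_primary_1811 the gene Cx3cr1 is 14561 bases long, so the span was far wider than the sand rat gene. The spans of Aif1 (3771 bases against 1722), Itgam (53591 against 35409) and Csf1r (26995 against 24216) were also wider than their sand rat genes. Whether every contig summed for any of the 7 genes, Havcr2 among them, lies inside the sand rat gene was not tested.

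The contigs of these genes had a median length of 501 bases, a median GC content of 52.5% and a median of 2.33 CpG per 100 bases. Over all contigs inside genes these medians were 518 bases, 49.7% and 2.26. The match to mouse was shorter, with a median of 193 bases or 29.8% of the contig, against 269 bases or 60.1% over all contigs inside genes. Of the 59 contigs, 30 (50.8%) had a stretch in common with at least 10 other contigs, by a nucleotide search with an e-value limit of 1e-05, and 18 shared a stretch with none. Matches covered a median of 21.3% of the contig in the 30 and 76.9% in the remaining 29. The genes differed in this: both C1qa contigs and 10 of the 13 Csf1r contigs shared no stretch, while 4 of the 5 Havcr2 contigs and 16 of the 24 Cx3cr1 contigs shared a stretch with at least 10 others.

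**Figure D1:**
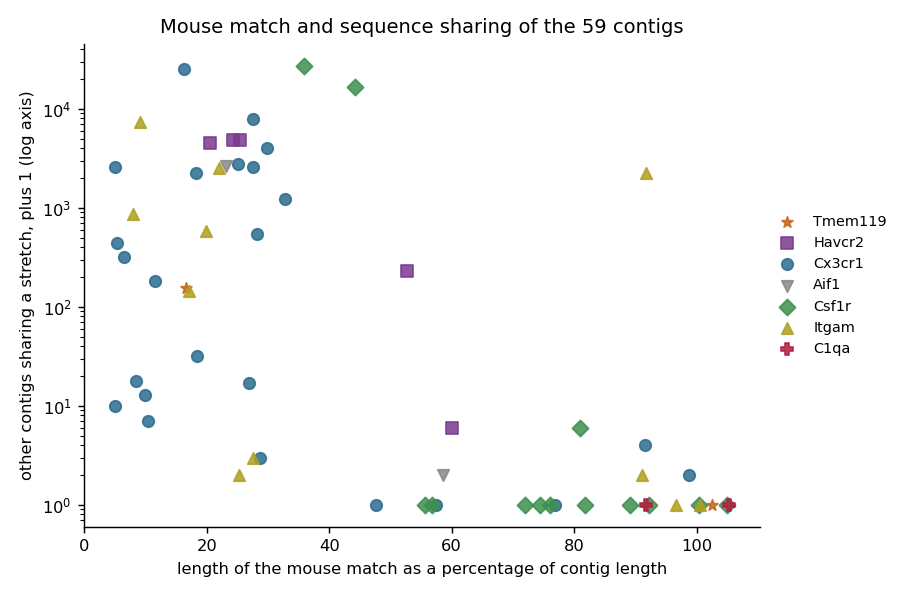
Each point is 1 of the 59 contigs, with the mouse match as a percentage of contig length on the x axis and the number of other contigs that share a stretch, plus 1, on a log y axis. The match length is that of the deposited table and can exceed the contig length. Contigs of C1qa and most of Csf1r lie at the lower right, and 3 of the 5 Havcr2 contigs lie at the upper left, with 4560 to 4857 sharing contigs each.

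Library totals ran from 11646180 to 13533441 counts, with every low-low total above every standard-low total. Single contigs of the 7 genes held 5 to 109 counts in a library, so counting error is large for any 1 contig, and contigs were also summed per gene. Capture is given in CPM, counts scaled to a common library size after TMM adjustment, and differences as log2 fold change (FC), standard-low minus low-low. The library standard-low 2 stood apart. Its median correlation with the other libraries was 0.7449, against 0.7929 to 0.8131 for the rest, and it was the lowest of the 8 libraries in 32.9% of all genes and in 6 of the 7 microglial genes. Its deviation from the mean of all libraries went with CpG density, from a median of 0.04 on the log2 scale in the quintile of contigs inside genes with the fewest CpG to -0.20 in the densest quintile. Standard-low 4 moved the same way, from 0.09 to -0.11, and standard-low 3 the opposite way, from 0.00 to 0.11. In the densest quintile the low-low libraries lay between 0.00 and 0.10. The part of this in the differences below was not tested, and the gene sums are given with and without standard-low 2.

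Capture of the 7 genes was compared per kilobase of contig. Havcr2 had the highest mean over 8 libraries, 4.44 CPM per kb (SD 0.576), then Cx3cr1 with 3.79 (SD 0.331), Tmem119 with 3.73 (SD 0.984), Itgam with 3.56 (SD 0.197), Csf1r with 3.55 (SD 0.501), C1qa with 3.40 (SD 0.882) and Aif1 with 2.67 (SD 0.309). The ranges of each pair of neighbours in this order overlapped. Farther apart they did not all do so: Aif1, at 2.18 to 3.09 CPM per kb over the libraries, lay below every library of Itgam (3.18 to 3.86), Cx3cr1 (3.25 to 4.33) and Havcr2 (3.49 to 5.09). The last place depended on the measure. Per CpG, C1qa was lowest with a mean of 0.107 CPM, then Aif1 with 0.131 and Tmem119 with 0.139, and Havcr2 was again highest with 0.218. The median contig of the 7 genes had 3.52 CPM per kb, the same value as the median of all contigs inside genes. The first place of Havcr2 rested on 1 contig, 1217175, with 8.27 CPM per kb. The other Havcr2 contigs had 1.47, 3.39, 3.52 and 3.55.

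Tmem119 had the widest relative gap between groups. Its 2 contigs together gave 5.42, 5.13, 6.98 and 6.22 CPM in low-low 1 to 4, and 4.28, 2.70, 4.14 and 5.07 CPM in standard-low 1 to 4. All low-low libraries lay above all standard-low libraries, with standard-low 2 lowest and a narrow gap between low-low 2 and standard-low 4. The means were 5.94 ± 0.836 and 4.05 ± 0.988 CPM (SD, n = 4), a log2 FC of -0.55 ± 0.171 (SE), or 1.47-fold less in standard-low. The edgeR adjusted p over all genes was 0.807, and without standard-low 2 the log2 FC was -0.40.

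Both Tmem119 contigs pointed the same way, but neither alone separated the groups. Contig 4117845, which holds the open frame and matches mouse chromosome 5 from 113795297 to 113795743 along its whole length of 437 bases, had 1.45, 0.966, 2.25 and 2.30 CPM in the low-low libraries and 1.03, 0.928, 1.33 and 0.930 CPM in the standard-low libraries. Low-low 3 and 4 were the high libraries, and low-low 2 lay among the standard-low libraries. Its log2 FC was -0.71 ± 0.292 (SE), and -0.66 without standard-low 2. Contig 2591522 matches mouse in 150 of its 903 bases and shares a stretch with 154 other contigs. It gave 3.97, 4.16, 4.74 and 3.92 CPM in the low-low libraries, and 3.25, 1.77, 2.82 and 4.14 CPM in the standard-low libraries, where standard-low 4 reached the low-low level. Its log2 FC was -0.48 ± 0.192 (SE), and -0.30 without standard-low 2. Both contigs fall in the second densest quintile for CpG, where the deviation of standard-low 2 was -0.07 and that of the low-low libraries 0.01 to 0.04. There, standard-low 1, 3 and 4 deviated by 0.00, 0.05 and -0.04. Contig 4117845, with 2.97 CpG per 100 bases, lies near that quintile's upper limit of 2.98. Of 2 contigs 3710 and 4287 bases from Tmem119, the log2 FC was -0.26 and -0.31, with overlapping groups.

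Havcr2 as a whole differed little between the groups. Its 5 contigs summed to 13.3, 12.9, 10.1 and 12.1 CPM in the low-low libraries and 14.7, 13.8, 11.0 and 14.7 CPM in the standard-low libraries. The groups overlapped, and replicate 3 was the lowest library in each. The log2 FC of the sum was 0.16 ± 0.115 (SE), and the edgeR adjusted p was 0.827. Without standard-low 2 the log2 FC was 0.15, and without standard-low 3 it was 0.25.

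Within Havcr2 the contigs did not move together. Contig 3308923, on mouse chromosome 11 from 46469670 to 46469804, gave 1.53, 1.49, 0.642 and 0.691 CPM in the low-low libraries and 2.31, 3.29, 3.48 and 2.62 CPM in the standard-low libraries, which are 20, 20, 8 and 9 counts against 27, 39, 42 and 31. Every standard-low library lay above every low-low library, and the low-low libraries split into a higher and a lower pair. The log2 FC was 1.41 ± 0.256 (SE), with an edgeR adjusted p of 0.00274. This was the only 1 of the 59 contigs past the threshold of 0.05. Of all contigs 0.0268% passed, 0.0203% with higher values in standard-low, and since this difference was known when Havcr2 was chosen, nothing is read from the count. The call was lost without either low-low library with few reads and with another tool: without low-low 3 the adjusted p was 0.0791, without low-low 4 it was 0.0549, and with DESeq2 it was 0.111. Without standard-low 2 the log2 FC was 1.35.

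The mouse match of contig 1298038 overlaps that of contig 3308923 by 99 bases, and their shared stretch had 82.3% identity. Whether either contig lies inside the sand rat Havcr2 gene was not tested. Contig 1298038 gave 0.764, 0.966, 0.803 and 0.461 CPM in the low-low libraries and 0.685, 1.18, 0.663 and 1.44 CPM in the standard-low libraries. The groups overlapped, with standard-low 2 and 4 high and standard-low 1 and 3 inside the low-low range. Contig 737445 had a log2 FC of 0.68, from 0.945 ± 0.159 to 1.52 ± 0.520 CPM (SD, n = 4), with standard-low 2 inside the low-low range. Contig 3514925 went the other way, with 1.76, 2.75, 2.09 and 1.84 CPM in the low-low libraries, 1.28, 1.69, 1.57 and 2.11 CPM in the standard-low libraries and a log2 FC of -0.34. Contig 1217175, the most captured of the 5 and the only 1 that shares a stretch with fewer than 10 others, gave 8.25, 6.98, 5.46 and 8.22 CPM in the low-low libraries and 8.90, 6.83, 3.73 and 6.42 CPM in the standard-low libraries. Its groups overlapped, and its log2 FC was -0.16.

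**Figure D2:**
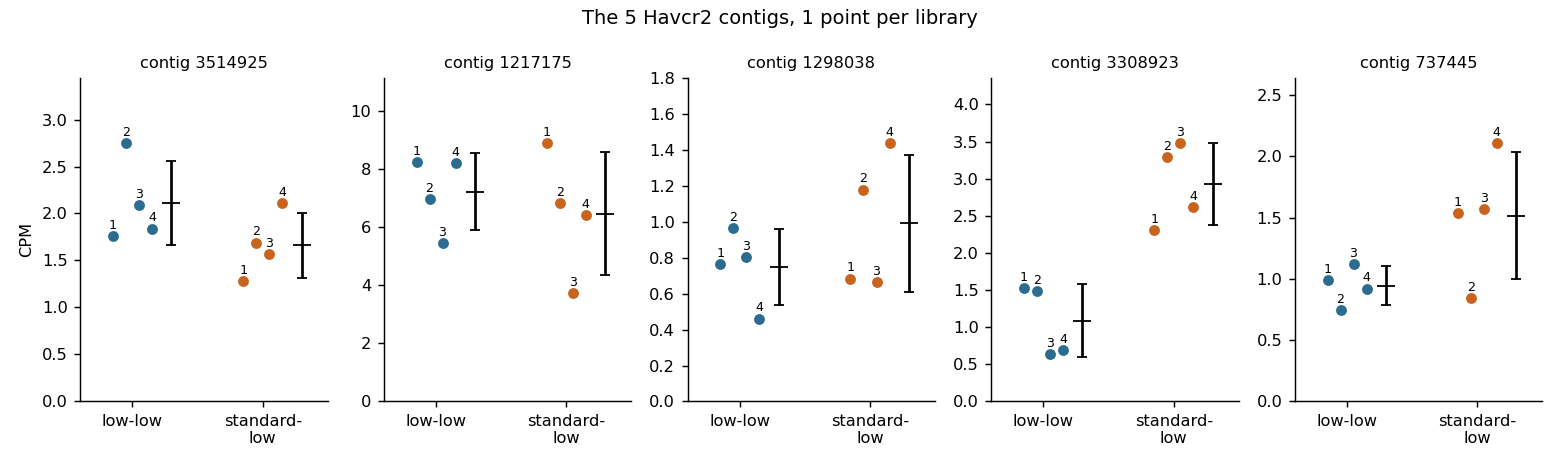
CPM of each of the 5 Havcr2 contigs in the 4 low-low and 4 standard-low libraries, with the replicate number above each point and the mean and SD as a bar. The y axes start at 0 and differ between panels. Contig 3308923 is the only panel in which the groups do not overlap.

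The Havcr2 contigs were also summed by sequence sharing. The 4 that share a stretch with at least 10 others summed to 4.89 ± 0.844 CPM in the low-low libraries and 7.10 ± 1.01 in the standard-low libraries, while the remaining contig had 7.23 ± 1.32 and 6.47 ± 2.12 (SD, n = 4). The groups overlapped in both sums, and of the 4 sharing contigs 3514925 had a negative log2 FC like the remaining contig. Without contig 3308923 the Havcr2 sum was 11.0 ± 1.05 in low-low and 10.6 ± 2.22 in the standard-low libraries. In contig 3308923 a stretch from base 369 to base 523, which includes the capitals printed above, was found in up to 4719 other contigs, and a second one, from base 11 to base 169, in up to 47. The sources used here do not give how reads that fit several copies were placed, and the mouse match, 138 bases long, is given without saying which bases of the contig it covers. Of the 4831 contigs that share a stretch with contig 3308923, 0 were past the edgeR threshold, where 0.0268% of all contigs were. An unadjusted p under 0.05 was found for 246 (5.09%), against 5.68% of all contigs. A positive log2 FC was found for 49.5%, against 50.3%, and the median was 0.00 in both. These values lie near those of all contigs, and the part of the shared stretch in the difference at contig 3308923 was not tested. A contig 1107 bases from Havcr2 had overlapping groups and a log2 FC of 0.59.

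The receptors for growth factor and chemokine signals had overlapping groups. Cx3cr1 encodes the fractalkine receptor, and the 24 contigs given to it spread wider than the sand rat gene. They summed to 59.1, 58.4, 60.7 and 56.6 CPM in the low-low libraries and 53.3, 49.0, 65.3 and 54.3 CPM in the standard-low libraries. The low-low libraries were close together, while standard-low 3 was the highest and standard-low 2 the lowest of the 8. The log2 FC was -0.08 ± 0.0726 (SE). It was -0.03 without standard-low 2 and -0.17 without standard-low 3. Its 24 contigs split evenly, 12 with a positive and 12 with a negative log2 FC, from -0.39 to 0.55. In contig 3293606 the groups did not overlap by a margin of 1.07 against 1.08 CPM, with a log2 FC of 0.35. Contigs 4047893 and 1143449 match the same 88 mouse bases of Cx3cr1, and their log2 FC was -0.18 and 0.11. They share a stretch with 3991 and 2767 other contigs.

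Csf1r, the receptor for Csf1 and Il34, had 19.9, 20.7, 18.5 and 24.3 CPM in the low-low libraries and 19.9, 14.6, 22.3 and 19.5 CPM in the standard-low libraries. Only standard-low 2 lay outside the low-low range. The log2 FC was -0.13 ± 0.112 (SE) and moved to -0.02 without that library and to -0.21 without standard-low 3. Of its 13 contigs, 9 had a negative log2 FC, with the range from -0.39 to 0.56. The extremes were contig 4148666, which shares a stretch with 16500 others, and contig 3595566, which shares none and had 0.997 ± 0.265 CPM in the low-low libraries and 1.47 ± 0.489 in the standard-low libraries (SD, n = 4).

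Itgam, the alpha chain of complement receptor 3, had the smallest SD over 8 libraries per kilobase of the 7 genes. Its sums were 29.3, 29.5, 31.9 and 30.1 CPM in the low-low libraries and 30.2, 26.2, 29.6 and 28.3 CPM in the standard-low libraries. The coefficient of variation was 3.91% within low-low and 6.14% within standard-low. The groups overlapped, with standard-low 2 lowest, and the log2 FC was -0.08 ± 0.0733 (SE). It was -0.04 without standard-low 2. Its 11 contigs, 7 of them negative, ranged from -0.39 to 0.37.

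C1qa, which encodes the A chain of C1q, had nearly the same mean in both groups and an unequal spread. It had 4.43, 5.35, 5.46 and 4.99 CPM in the low-low libraries and 4.96, 2.70, 7.46 and 4.99 CPM in the standard-low libraries. Standard-low 2 and 3 were the lowest and the highest of all 8 libraries, and both other standard-low libraries lay inside the low-low range. The coefficient of variation was 38.7% in standard-low and 9.15% in low-low, whose difference was not tested, and the log2 FC was -0.01 ± 0.203 (SE). It was 0.20 without standard-low 2 and -0.26 without standard-low 3. The 2 contigs behaved alike in this respect: contig 1149177 had 1.77 CPM in standard-low 2 and 4.81 in standard-low 3, and contig 4619916 had 0.928 and 2.65. Contig 1149177 lies in the densest quintile for CpG, where these libraries deviated by a median of -0.20 and 0.11. Contig 4619916 lies in the middle quintile, where they deviated by -0.01 and 0.03. The part of these deviations in the values of either contig was not tested. A contig 3157 bases from C1qa had 1.69 ± 0.170 CPM in the low-low libraries and 2.32 ± 0.295 in the standard-low libraries (SD, n = 4), with no overlap and a log2 FC of 0.45.

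Aif1, which encodes the actin-binding protein IBA1 used to stain microglia, had 4.58, 4.75, 3.77 and 4.76 CPM in the low-low libraries and 5.13, 3.63, 4.56 and 4.31 CPM in the standard-low libraries. The groups overlapped, and the log2 FC was -0.02 ± 0.155 (SE), with 0.06 in its place when standard-low 2 was left out. Contig 4488248, with a match of 600 bases, had a log2 FC of 0.03, and contig 1181074, which shares a stretch with 2662 others, one of -0.14.

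**Figure D3:**
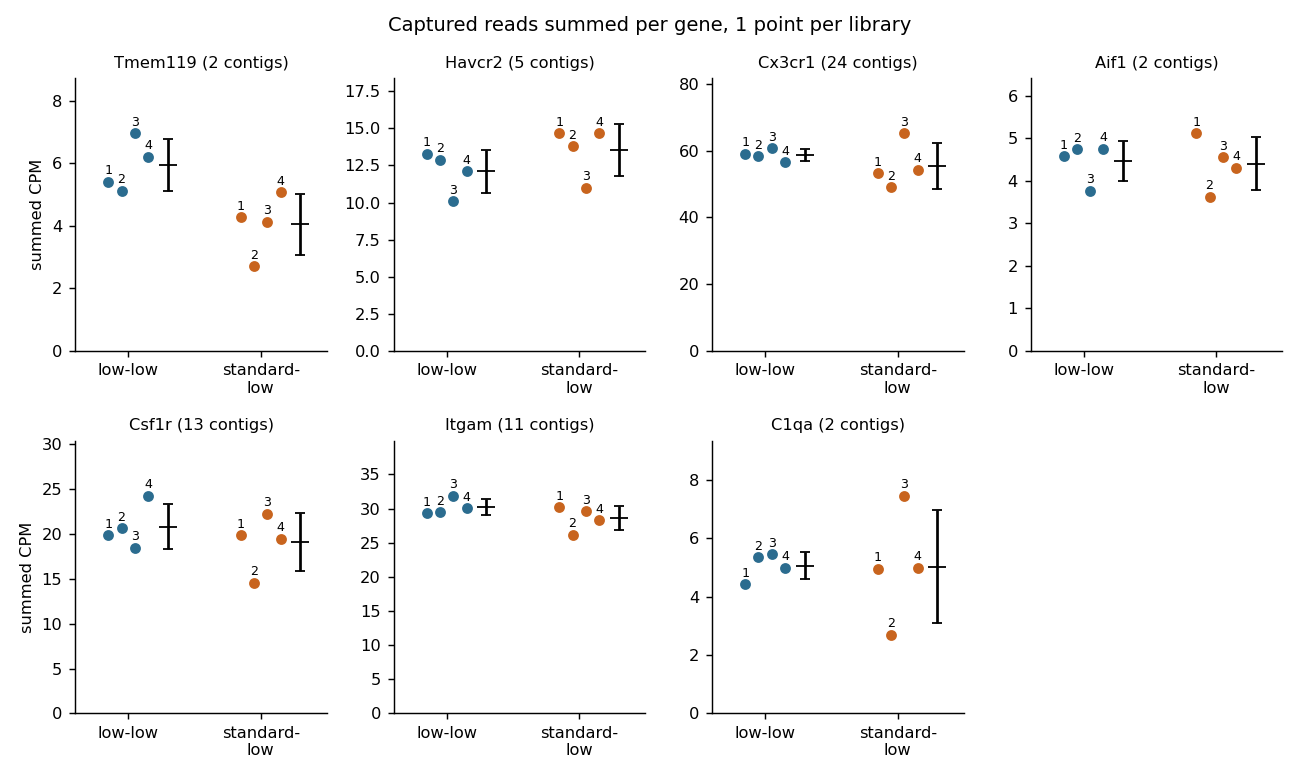
Summed CPM of each of the 7 genes in each library, with the replicate number above each point and the mean and SD as a bar. The y axes start at 0. Tmem119 is the only gene in which the 4 low-low libraries all lie above the 4 standard-low libraries, and standard-low 2 is the lowest library in all genes except Havcr2.

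Over the 7 gene sums, 6 had a negative and 1 a positive log2 FC, with a median of -0.08. Of all 19098 genes, 41.4% were positive, with a median of -0.03. No gene sum of the 7 passed the edgeR threshold, and 0.00524% of all genes did. At an unadjusted p under 0.05, 1 of the 7 was counted, Tmem119 on the lower side, where 6.03% of all genes were, 1.71% higher and 4.32% lower in standard-low. Without standard-low 3 the count was 3 of the 7, and it stayed at 1 when any other single library was left out. The share of all genes under that p is not given without standard-low 3, so nothing is read from that count. Over all genes, 30 gene sums passed the edgeR adjusted threshold without standard-low 3, against 1 with all libraries. Non-overlapping groups were seen for Tmem119 alone among the 7 and for 3.48% of all genes, 1.4% higher and 2.08% lower. Of the 59 contigs, 25 had a positive and 34 a negative log2 FC, with a median of -0.05, against 50.3% positive and a median of 0.00 over all contigs. An unadjusted p under 0.05 was found for 4 contigs, the 2 of Tmem119 and contigs 3308923 and 737445 of Havcr2, where 5.68% of all contigs had one, 2.93% higher and 2.76% lower in standard-low. With 1 library left out it was found for 3 to 7 of the 59, fewest without low-low 2 and most without standard-low 3. The shares of all contigs are not given for these settings, so nothing is read from these counts. Without standard-low 3, 207 of all contigs passed the edgeR adjusted threshold, against 147 with all libraries. Groups that do not overlap were found in 2 of the 59 contigs, both higher in standard-low, and in 3.24% of all contigs, 1.63% higher and 1.61% lower.

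**Figure D4:**
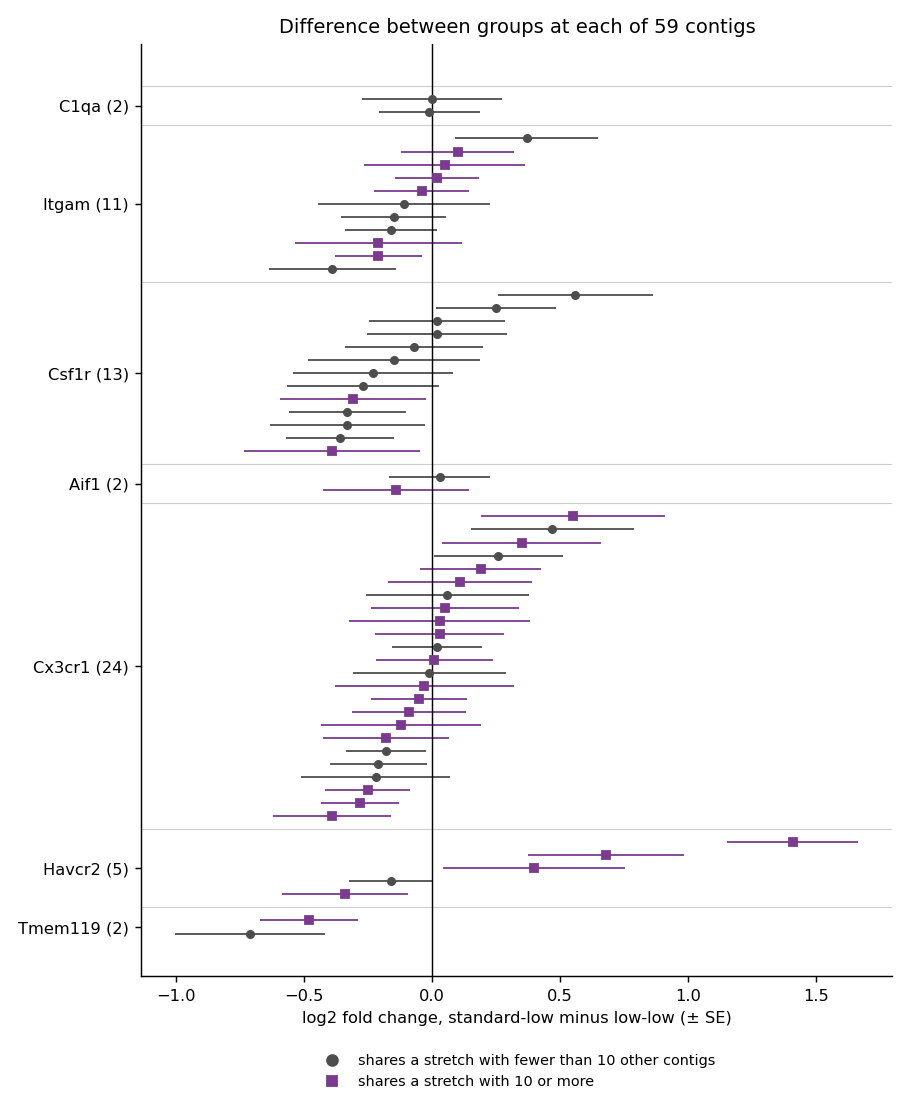
Log2 fold change of each contig with its standard error, by gene, with the number of contigs in parentheses. Squares mark contigs that share a stretch with 10 or more others. Contig 3308923 of Havcr2, at 1.41, lies far to the right of all others, which run from -0.71 to 0.68.

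Other genes of microglia and of their signals were read from lists, and none of their gene sums passed the edgeR threshold. Among 27 homeostatic microglial genes, 22 had a contig inside, of which 5 had a positive and 17 a negative log2 FC, with a median of -0.07. The lowest unadjusted p was that of Mertk, a receptor for the uptake of dying cells, with 55.1 ± 2.22 CPM in the low-low libraries and 48.6 ± 1.76 in the standard-low libraries (SD, n = 4; edgeR unadjusted p = 0.00614, adjusted p = 0.807). All 4 low-low libraries of Mertk lay above the standard-low libraries. In the other direction it was that of Fcrls, with a log2 FC of 0.39 and overlapping groups. Trem2, a lipid-sensing receptor, had 4.59 ± 0.310 and 5.12 ± 0.752 CPM. P2ry12 and the transcription factor gene Spi1 had no contig inside and are not analysed here.

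Partners of the 7 genes were read next. Of 18 ligands, complement genes and partners listed, 16 had a contig, 4 positive and 12 negative, with a median of -0.09, beside 41.4% positive and a median of -0.03 over all genes. Itgb2, whose product pairs with that of Itgam in complement receptor 3, had 26.0, 27.0, 27.8 and 27.0 CPM in the low-low libraries and 24.6, 20.4, 25.4 and 21.5 CPM in the standard-low libraries. The groups did not overlap, and the log2 FC was -0.23 (edgeR unadjusted p = 0.012, adjusted p = 0.807). C1qb, the B chain of C1q, had 4.81, 6.02, 5.62 and 5.99 CPM in the low-low libraries and 4.54, 3.88, 4.64 and 4.23 CPM in the standard-low libraries. These groups did not overlap either, and the log2 FC was -0.38 (edgeR unadjusted p = 0.0154, adjusted p = 0.807). C1qc, the C chain, had overlapping groups and a log2 FC of -0.26, so C1qa, with -0.01, stood beside 2 chains with lower means in standard-low. The C1qa value hung on single libraries, with -0.26 without standard-low 3 and 0.20 without standard-low 2. The difference between the chains was not tested.

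The ligands of the receptors had overlapping groups. Cx3cl1, which encodes fractalkine, had 6.29 ± 0.957 CPM in the low-low libraries and 5.53 ± 1.11 in the standard-low libraries. Of the ligands of Csf1r, Csf1 had 5.0 ± 1.2 and 4.88 ± 0.898, and Il34 had 24.1 ± 0.776 and 23.0 ± 0.778 (SD, n = 4). Lgals9 encodes galectin-9, a ligand of TIM-3, and had 17.1 ± 2.30 and 17.5 ± 1.90. Fyn, a kinase bound by TIM-3, had the lowest p among the positive genes of this list, with a log2 FC of 0.13 and overlapping groups.

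The relatives of Havcr2 in the TIM family showed no common direction. Havcr1 had 1.87 ± 0.391 CPM in the low-low libraries and 1.37 ± 0.0934 in the standard-low libraries, with a log2 FC of -0.44. For Timd4, a receptor for phosphatidylserine, the log2 FC was -0.14, and for Timd2 it was 0.08. All 3 had overlapping groups. Among 10 transcription factor genes with a contig, 4 were positive and 6 negative. The lowest p belonged to Irf8 among the negative genes, with a log2 FC of -0.30, and to Nfkb1 among the positive, with 0.09. Nfkb1 had non-overlapping groups, 17.4 ± 0.454 against 18.6 ± 0.728 CPM (SD, n = 4). Of 20 activation and innate immune genes with a contig, 6 were positive and 14 negative. The co-stimulatory receptor gene Cd40 had 15.1 ± 0.420 CPM in the low-low libraries and 13.2 ± 0.210 in the standard-low libraries, with no overlap (edgeR unadjusted p = 0.0375, adjusted p = 0.807). Spp1, which encodes osteopontin, had the lowest p on the positive side, with a log2 FC of 0.61 and overlapping groups.

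Genes that mark other cells were read the same way. Of 7 T cell genes, 2 were positive and 5 negative, with a median of -0.07. Of 6 genes of peripheral and perivascular myeloid cells, 5 were positive and 1 negative, with a median of 0.06. Genes of these lists that stood out, picked after their values were seen, were the T cell checkpoint receptor gene Pdcd1, the regulatory T cell factor gene Foxp3, the mannose receptor gene Mrc1 and the chemokine receptor gene Ccr2. Pdcd1 had 5.48 ± 0.247 CPM in low-low libraries against 4.20 ± 0.419, with no overlap (SD, n = 4; edgeR unadjusted p = 0.0126, adjusted p = 0.807). Foxp3 had a log2 FC of -0.49 and overlapping groups (edgeR unadjusted p = 0.0404). Mrc1 had 20.7 ± 0.915 CPM against 23.9 ± 2.15, with overlap (edgeR unadjusted p = 0.0264, adjusted p = 0.807), and Ccr2 had 2.21 ± 0.270 against 2.78 ± 0.115, with no overlap (edgeR unadjusted p = 0.0904). The remaining T cell genes had a log2 FC from -0.14 for Cd3g to 0.32 for Cd8a, with Cd3e at -0.07, Lag3 at -0.03 and Cd4 at 0.02. The remaining myeloid genes ran from -0.08 for S100a9 to 0.11 for F13a1, with Cd163 and Lyve1 at 0.01. All of these remaining genes had overlapping groups. The part of any gene of these lists in the values of the 7 genes was not tested. The medians were 0.01 for neurons, -0.23 for oligodendrocytes, -0.14 for astrocytes and 0.01 for endothelium, with 4 or 5 genes each. No gene of these lists passed the edgeR threshold.

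**Figure D5:**
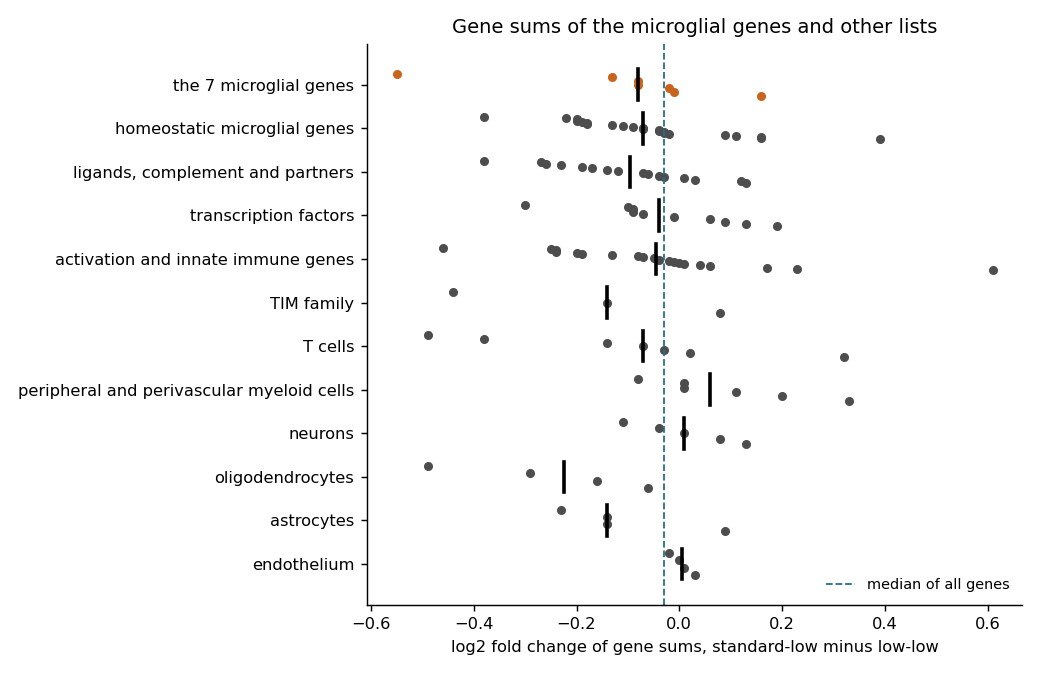
Log2 fold change of gene sums, standard-low minus low-low, for each gene of each list that holds a contig. The thick bars are list medians and the dashed line is the median of all genes, -0.03. Tmem119 is the leftmost of the 7 microglial genes, at -0.55, and Havcr2 the rightmost, at 0.16.

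Over the 8 libraries, the genes whose sums followed Tmem119 most closely among 13148 genes with a mean of at least 50 counts were Cndp2 (Pearson r 0.986, Spearman rho 0.929), Galnt12 (0.971 and 0.905) and Dnm2 (0.964 and 0.976), on log2(CPM + 0.5). For Havcr2 they were Atp13a5 (0.956 and 0.905), Cldn16 (0.946 and 0.905) and Cenpi (0.929 and 0.905). All of these sums come from the same 8 libraries and so share their depth and the deviations with CpG density, and the genes were picked as the highest of all those compared.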

How the data were processed

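The authors deposited a table of whole-number read counts per contig for 8 MethylMiner libraries, with the contig's sequence and, for 208288 of 548060 contigs, a mouse match, the nearest mouse gene and its distance. FastQC and BWA are named in the submitters' processing notes. Their versions, the assembler, the mouse build and the treatment of reads with several placements are not stated in the sources at hand. The lowest summed count over 8 libraries was 81. Header names are separated by spaces and values by tabs, and each column was given the name at the same place in the header.

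The 7 genes, the lists and the tests were chosen with earlier results of these data known. Contigs at distance 0 were taken per gene, and their counts summed. Contigs and gene sums were fitted over the whole table with edgeR 4.0.16 in R 4.3.3 (TMM factors of the contig table, glmQLFit, two-sided glmQLFTest, mean of at least 10 counts, Benjamini-Hochberg adjustment at 0.05). The SE is the log2 fold change divided by the square root of the F statistic. Shared stretches were found with BLAST 2.17.0 (blastn, e-value 1e-05). From each list of microglial genes, partners, transcription factors and activation genes the text names the gene with the lowest unadjusted p in each direction, the TIM family, and C1qb, C1qc, Itgb2, Cx3cl1, Csf1, Il34, Lgals9, Trem2, P2ry12 and Spi1. Other settings were RLE factors, library totals alone, no count filter or 20 counts, DESeq2 1.42.0, limma voom (3.58.1), each library left out, a replicate block, contigs within 2000 bases and matches of at least 100 bases. The fits were also run on simulated counts, where part of the changed contigs and gene sums were missed. A result that did not pass the threshold is therefore no evidence of equal groups.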

Additional observations from a re-analysis of the deposited data

How the results depend on the processing

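The count of contigs past the threshold among the 59 was 1 in 12 of 15 other settings. It was 0 with DESeq2, and it ranged from 0 to 1 when 1 library was left out. The Havcr2 contig 3308923 kept a log2 fold change of 1.24 to 1.62 in every setting. No gene sum of the 7 passed in any of 18 settings. With shared contigs left out, a setting chosen after seeing the data, the Havcr2 sum had a log2 fold change of -0.16. The Tmem119 sum stayed negative, from -0.71 to -0.40, and those of Aif1 and C1qa changed sign between settings. Over all contigs edgeR called 147, DESeq2 32, limma voom 50 and a minimum of 20 counts 65, and 68 to 207 with 1 library left out. At 20 counts 30 of the 59 contigs remained. Over all gene sums 1 was called, 2 with DESeq2, 0 with limma voom, 8 without standard-low 2 and 30 without standard-low 3.

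After removal of group means, correlations of same-numbered libraries over contigs were 0.0137, 0.0317, 0.0303 and -0.0107. Replicates 2 and 3 matched their own number best. Counting error in single contigs is large, so these values cannot show whether the numbers pair the samples. With the replicate block, 1 of the 59 contigs passed, with a log2 fold change of 1.42 for contig 3308923, and 0 gene sums of the 7. Calls over the table were 206 contigs and 3 gene sums. Depth limits single contigs, whose median was a mean of 21.5 counts per library.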
